A study of Mus musculus with 22 samples.

Results

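The genes described here mark high endothelial venules and lymphoid follicles, the parts of tertiary lymphoid structures, in mouse pancreatic tumours left untreated or treated with beta-glucan, an anti-CD40 antibody or both. The members were a given list of 10 genes: Glycam1, Chst4, Madcam1, Cxcl13, Cxcr5, Ccl19, Ccl21a, Lta, Ltb and Tnfsf13b. Of these, 9 were found among the 17966 genes of the table, Ccl21a was not analysed here, and 8 passed the filter on low values. Cxcr5 did not pass it, with 4 tumours at a normalized count of 10 or more.

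All 22 tumours were orthotopic, that is, grown in the mouse pancreas, and came from PDA.7940B cells, a polyclonal line of pancreatic ductal adenocarcinoma derived from the KPC model. The hosts were labelled wild type. The untreated group (n = 5) was compared with tumours taken 10 days after 1.2 mg of beta-glucan given once into a vein (n = 6), after 0.1 mg of the anti-CD40 antibody FGK45 given once into the peritoneum (n = 6), or after both agents (n = 5), for which the label states no dose. Whether the tumours of a group grew in different mice is not stated in the labels, so a p-value here reflects only how these samples vary, which may be technical. RNA came from 5 µm sections of formalin-fixed, paraffin-embedded tumour, and 3′ ends of transcripts were sequenced, so a value counts transcripts near their 3′ end and does not tell isoforms apart. In bulk RNA of this kind, fewer cells of a type and less RNA per cell cannot be told apart.

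Tertiary lymphoid structures are clusters of lymphocytes that form outside lymphoid organs. Lymphotoxins from lymphocytes act on stromal cells and endothelium through the lymphotoxin beta receptor and the NF-kB pathway, including its RelB arm. The stroma then makes the chemokines CXCL13, CCL19 and CCL21, which draw B cells through CXCR5 and T cells and dendritic cells through CCR7. High endothelial venules display sulfated sugars on proteins such as GLYCAM1, which slow passing lymphocytes, and carry MADCAM1, which binds the integrin alpha4 beta7. Beta-glucan, a yeast and fungal cell wall sugar, is a ligand of Dectin-1 on myeloid cells. B cells, dendritic cells and macrophages carry CD40.

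The sequences before the transcription starts of 4 members are shown as examples. These genes held matches to NF-kB or STAT motifs and were higher in treated tumours. Lta also held STAT motif matches and was higher with the combination, and its sequence is not shown. Each run is the 250 bases before the RefSeq start (assembly GRCm38.p6), read 5′ to 3′ on the strand of the gene, with motif matches in capitals. For Cxcl13 (chr5:95956689-95956938, plus strand) the capitals are a RelB-type kappaB element whose first base lies 114 bases before the start. For Madcam1 (chr10:79664309-79664558, plus strand) they are a pair of NF-kB consensus matches that begin 83 and 70 bases before the start. For Ltb (chr17:35194257-35194506, plus strand) they are a GAS match at 172 bases and an NF-kB consensus match at 87 bases before the start. For Glycam1 (chr15:103565082-103565331, minus strand) they are a GAS match, the STAT-binding pattern TTCNNNGAA, at 145 bases before the start.
Cxcl13: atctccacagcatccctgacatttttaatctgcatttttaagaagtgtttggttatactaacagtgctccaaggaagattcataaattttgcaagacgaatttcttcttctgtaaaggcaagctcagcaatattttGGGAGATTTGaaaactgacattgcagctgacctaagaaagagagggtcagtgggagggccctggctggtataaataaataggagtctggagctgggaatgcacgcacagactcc
Madcam1: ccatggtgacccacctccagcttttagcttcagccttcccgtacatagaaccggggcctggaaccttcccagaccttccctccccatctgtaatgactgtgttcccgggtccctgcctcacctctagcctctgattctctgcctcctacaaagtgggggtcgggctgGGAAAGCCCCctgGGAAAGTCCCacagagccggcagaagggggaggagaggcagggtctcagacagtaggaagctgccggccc
Ltb: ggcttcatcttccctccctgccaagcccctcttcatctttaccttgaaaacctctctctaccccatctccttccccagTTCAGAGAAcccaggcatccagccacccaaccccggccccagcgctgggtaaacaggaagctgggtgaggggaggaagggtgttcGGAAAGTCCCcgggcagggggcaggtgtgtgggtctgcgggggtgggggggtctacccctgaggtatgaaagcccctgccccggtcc
Glycam1: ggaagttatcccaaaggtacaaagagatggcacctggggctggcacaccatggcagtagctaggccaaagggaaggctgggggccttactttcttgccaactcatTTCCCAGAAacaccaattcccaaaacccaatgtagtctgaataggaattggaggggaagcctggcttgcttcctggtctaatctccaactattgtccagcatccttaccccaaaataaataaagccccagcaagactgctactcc

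Both strands were searched for 4 motifs in windows of 300 bases, from 250 before to 50 after the start, and the share of all 32851 such windows with a match was 0.365% for the RelB-type element, 4.51% for the NF-kB consensus, 8.3% for GAS and 8.56% for the interferon-response core GAAANNGAA. GAS and the interferon-response core share letters only in part, and no match of one overlapped a match of another in these windows. Lta held GAS matches at 152 and 16 bases before its start, Ccl19 held an interferon-response core at 208 bases, and the second of 2 Tnfsf13b windows held one at 16 bases. Windows were found for 9 members. These letters were in neither the Chst4 nor the Ccl21a window. A match is a description of the sequence and shows no binding.

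Depth in M reads was 7.38 to 9.34 for untreated tumours, 7.13 to 8.74 after beta-glucan, 6.33 to 21.2 after anti-CD40 and 12.2 to 18.8 after the combination. Reads of a list of 15 acinar genes, the digestive enzymes of normal pancreas, took a median of 2.09% of a tumour's reads without treatment, 1.78% with beta-glucan, 20.4% with anti-CD40 and 18.1% with the combination. Within groups that share ranged from 0.0148 to 11.8%, 0.381 to 11.7%, 0.421 to 43.2% and 0.390 to 23.7%. It was above 20% in 5 tumours, anti-CD40 2, 3 and 6 and combination 4 and 5, and highest in anti-CD40 6. A normalized count of 1 stood for only 0.368 reads in anti-CD40 6, so 0 reads there allow a normalized count of up to 8.15 by counting error alone.

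Beta-glucan was compared with no treatment to ask whether it changes these genes by itself. Glycam1, Madcam1 and Cxcl13 rose. These 3 calls of 8 compare with 6.42% of all 14278 tested genes called in either direction, 5.09% higher and 1.32% lower. Glycam1 and Cxcl13 were the 2 members whose groups did not overlap, a pattern that 6.85% of all tested genes showed. The median log2 fold change of the 8 members was 1.57, against 0.02 for all tested genes. With every tumour scaled to the same total of reads, in place of the size factors, the share of higher genes among all calls went from 79.4 to 93.4%. DESeq2 called 4 members and edgeR 3, against 1222 and 789 of all tested genes. Without the 5 tumours above 20% acinar reads limma called 4 members, against 1294 of all tested genes. Those tumours were in neither of these 2 groups, so only the estimate of spread shared by all groups could change.

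Anti-CD40 was compared with no treatment in the same way. Glycam1, Madcam1, Cxcl13, Ccl19, Ltb and Tnfsf13b rose, and Chst4 fell. These 7 calls of 8 compare with 18.6% of all tested genes, with 11% called higher and 7.56% lower. The groups did not overlap for the same 7 genes, against 9.1% of all tested genes. The members' median log2 fold change was 3.37, against 0.00 for all tested genes. With equal totals 6 members were called, and the share of higher genes among all calls went from 59.3 to 22.4% (35.3% with the totals outside the acinar list made equal). Without the 5 tumours above 20% acinar reads all 8 were called, against 2842 of all tested genes.

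With the combination, Lta joined the genes that rose, so that 7 members were higher and Chst4 was lower. The 8 calls of 8 compare with 34% of all tested genes, 18.2% higher and 15.8% lower, so this comparison called many genes of every kind. The groups did not overlap for 7 of the 8, against 21.9% of all tested genes, and Lta was the exception. The members' median log2 fold change was 3.75, against -0.01 for all tested genes. With equal totals 7 members were called, and the share of higher genes among all calls went from 53.6 to 33.2% (41.0% with equal totals outside the acinar list). Without the 5 tumours above 20% acinar reads all 8 members were called, against 4265 of all tested genes. The 3 comparisons share the 5 untreated tumours. In each, members passed the filter with the help of the group where they were high, so these counts describe the genes and do not set them apart from others.

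**Figure D1:**
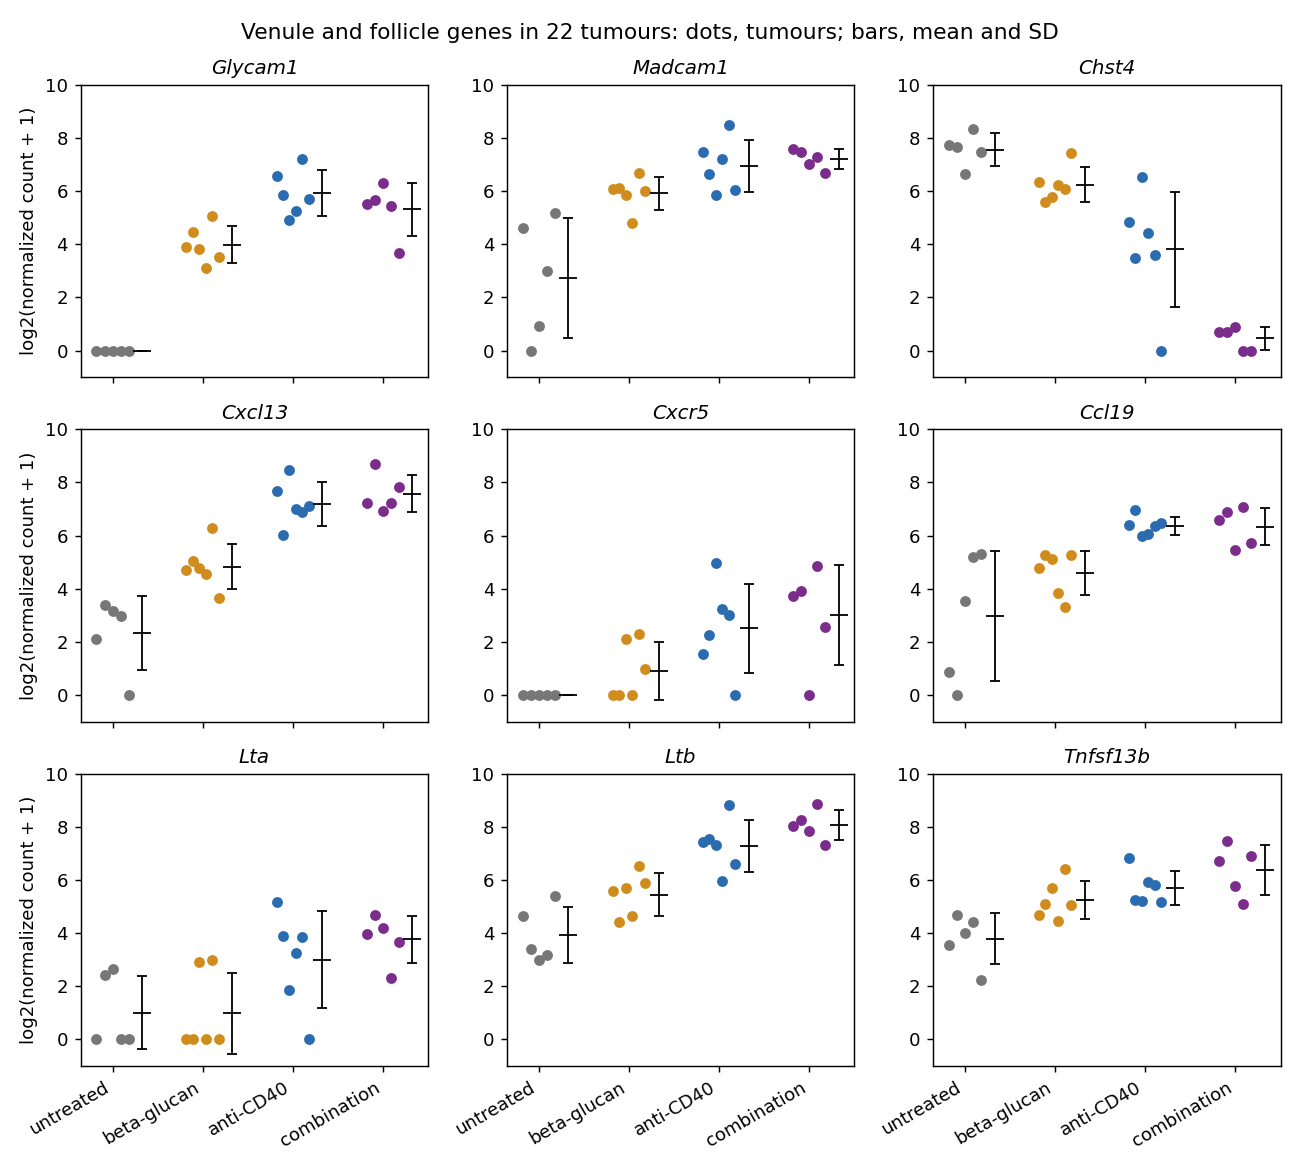
Normalized counts of the 9 measured genes on the log2(normalized count + 1) axis, 1 panel per gene, with a dot for each of the 22 tumours and a bar for the group's mean and SD on that scale. Glycam1 and Cxcr5 sit at 0 in all 5 untreated tumours, and Chst4 is the panel whose values step down from untreated to combination tumours.

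Glycam1 encodes a mucin-like adhesion protein made by high endothelial venules and by lactating mammary gland (chromosome 15, 103562759 to 103565081, minus strand, GRCm38). It had no reads in any of the 5 untreated tumours, which allows a mean normalized count of up to 0.580 for the group. The 6 beta-glucan tumours ran from 7.60 to 32.8 with a median of 13.6, and the 6 anti-CD40 tumours from 29.0 to 149 with a median of 54.4. The 5 combination tumours stood at 44.4, 49.3, 79.2, 42.5 and 11.6. Every treated tumour was therefore above every untreated one, and the lowest anti-CD40 and combination tumours reached into the beta-glucan range.

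The Glycam1 mean was 16.5 ± 9.16 (SD, n = 6) with beta-glucan, at least 28.5-fold higher than untreated. Anti-CD40 tumours had a mean of 69.8 ± 44.8 (n = 6) and combination tumours of 45.4 ± 24 (n = 5), at least 120.4-fold and at least 78.3-fold higher. These bounds divide the mean by the limit of 3 reads over the untreated group. They take the treated mean as it stands, without its counting error or its spread between tumours. The limma adjusted p was 3.98e-05, 1.28e-07 and 1.54e-07, and the exact two-sided permutation p was 0.00433, 0.00433 and 0.00794, the smallest these group sizes allow. All 3 calls held in each of 33 alternatives. As for the other Glycam1 source, casein and whey genes of mammary gland, 2 of 6 listed genes were in the table, with summed medians of 8.63, 9.28, 4.25 and 8.36 in the 4 groups. Csn1s1, Csn2, Csn1s2a and Wap were not analysed here.

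Madcam1 encodes the venule adhesion molecule bound by integrin alpha4 beta7 (chromosome 10, 79664559 to 79668537, plus strand). Its values in untreated tumours were 23.3, 0, 0.877, 6.87 and 35.1. With beta-glucan they ran from 26.6 to 102 with a median of 65.4, and with anti-CD40 from 56.8 to 359 with a median of 123. The 5 combination values were 189, 178, 128, 155 and 101. The beta-glucan range overlapped the untreated one through a single pair of tumours, and the other 2 treated groups lay above it.

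Madcam1 rose 9.14-fold with beta-glucan (log2 3.19 ± 0.69, SE, adjusted p = 0.00514), from a mean of 13.2 ± 15.4 (SD, n = 5) to 64.2 ± 24.3 (n = 6). It rose 18.6-fold with anti-CD40 (log2 4.22 ± 0.69, adjusted p = 0.00012) and 22.2-fold with the combination (log2 4.47 ± 0.72, adjusted p = 3.95e-05). The means of the latter groups, 150.5 ± 112 and 150.3 ± 36.1, were nearly equal while their spread was not. A fold here is 2 to the power of a difference of means on the log2(normalized count + 1) scale. It is not the ratio of the means, and it exceeded that ratio for Madcam1, where some untreated tumours were at or near 0. The added 1 in turn lowers the fold of genes with few reads, so a fold is no limit in either direction.

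Chst4 encodes a sulfotransferase of high endothelial venules that adds sulfate to the sugars of venule adhesion proteins (chromosome 8, 110029153 to 110039740, minus strand), and it moved the other way. Untreated tumours stood at 210.5, 201.1, 98.3, 322 and 179. Beta-glucan tumours ran from 46.7 to 174 with a median of 70.3, and anti-CD40 tumours from 0 to 92.4 with a median of 15.7. Combination tumours stood at 0.643, 0.609, 0.834, 0 and 0, which are 1, 1, 1, 0 and 0 reads. All anti-CD40 and combination tumours were below all untreated ones, and only beta-glucan 6 reached the untreated range.

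In log2 terms Chst4 fell by 3.76 ± 0.72 with anti-CD40 (adjusted p = 0.000673), from a mean of 202 ± 80.2 (SD, n = 5) to 26.96 ± 33.4 (n = 6). It fell by 7.11 ± 0.75 with the combination (adjusted p = 2.00e-07). With 3 reads in the combination group against 1022 in the untreated group, the ratio of pooled reads, each group's sum divided by the sum of its size factors, was 407 (95% interval 139 to 1977, counting error only). The difference with beta-glucan, log2 -1.32 ± 0.72, did not pass (adjusted p = 0.331). It passed without the 5 tumours above 20% acinar reads (limma adjusted p = 0.0326). None of those was an untreated or beta-glucan tumour. The difference stayed at log2 -1.32, and its SE, from the spread shared by all groups, went from 0.72 to 0.38. Of the beta-glucan tumours, 5 of 6 were below every untreated one.

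The epithelial marker list, which had 8 genes, was lower in the same groups as Chst4. Its summed normalized count had a median of 39832 (range 30893 to 41760) in untreated tumours, 19101 (10179 to 26513) with beta-glucan, 16381 (4104 to 22774) with anti-CD40 and 4117 (3493 to 8526) with the combination. Across the 22 tumours Pearson's r between Chst4 and the mean of the list was 0.89, and 0.57 after the group means were removed. The part of epithelium in the Chst4 result was not tested. Chst4 had reads in all 5 untreated tumours, where Glycam1 had none.

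**Figure D2:**
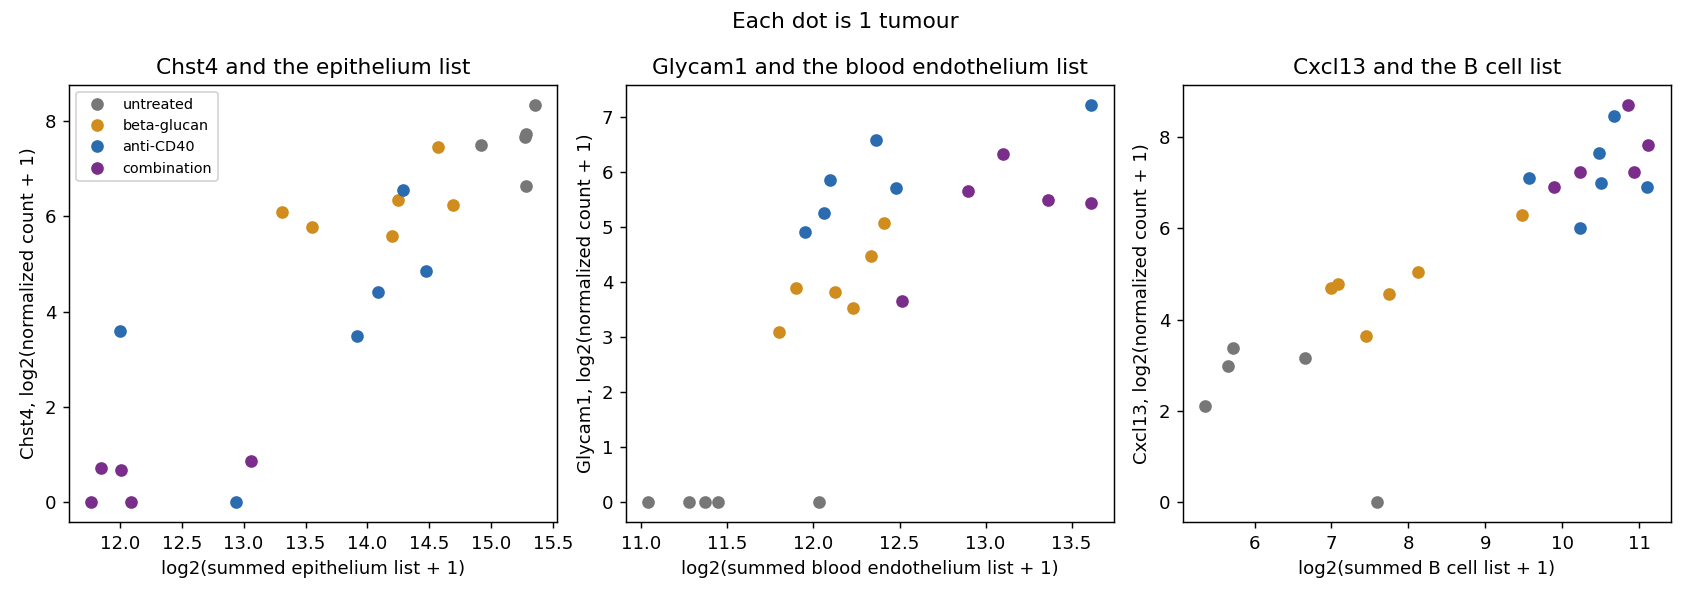
Chst4 against the summed epithelium list, Glycam1 against the summed blood endothelium list and Cxcl13 against the summed B cell list, on log2(normalized count + 1) axes, with a dot for each of the 22 tumours coloured by group. Combination tumours lie at the low end of both Chst4 and the epithelium list, where they overlap with anti-CD40 tumours, while untreated tumours are at 0 for Glycam1 over a range of endothelial sums.

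Cxcl13 encodes the chemokine that draws B cells into follicles (chromosome 5, 95956951 to 95961068, plus strand). Without treatment the values were 3.33, 9.49, 7.90, 6.87 and 0. The beta-glucan values ran from 11.5 to 77.5 with a median of 25.7, and the anti-CD40 values from 63.5 to 352 with a median of 132. In combination tumours they were 149.8, 417, 119, 149 and 226. All treated tumours lay above all untreated ones, and all combination tumours lay above all beta-glucan ones.

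Cxcl13 rose 5.69-fold with beta-glucan (log2 2.51 ± 0.56, adjusted p = 0.00649), 29.1-fold with anti-CD40 (4.86 ± 0.56, adjusted p = 1.88e-06) and 38.2-fold with the combination (5.25 ± 0.58, adjusted p = 3.9e-07). Its means were 5.52 ± 3.83 (SD, n = 5), 32.5 ± 23.0 (n = 6), 167 ± 101 (n = 6) and 212 ± 121 (n = 5) in the order untreated, beta-glucan, anti-CD40 and combination. All 3 calls held in each of 33 alternatives.

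Cxcr5 encodes the CXCL13 receptor of B cells and follicular helper T cells (chromosome 9, 44511787 to 44561877, minus strand, with Bcl9l on the opposite strand). It had no reads in any untreated tumour. Beta-glucan tumours ran from 0 to 3.97 with a median of 0.479, and anti-CD40 tumours from 0 to 30.4 with a median of 5.45. Combination tumours stood at 12.2, 14.0, 0, 27.9 and 4.85. At least 1 tumour of each treated group was also at 0, so all groups overlapped. Among anti-CD40 tumours this was only anti-CD40 6, where 0 reads allow a value of up to 8.15.

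The Cxcr5 mean was 8.62 ± 11.1 (SD, n = 6) in anti-CD40 tumours and 11.8 ± 10.6 (n = 5) in combination tumours. These means were 14.9 and 20.3 times the untreated limit of 0.580, with the error of the treated means left out. The exact two-sided permutation p was 0.026 and 0.0476, unadjusted. With beta-glucan the mean of 1.37 ± 1.81 (n = 6) came from 8 reads, with 3 tumours at 0 (exact permutation p = 0.242), too few to bound a fold. When no filter was applied, limma gave adjusted p = 0.652, 0.0362 and 0.00861 for beta-glucan, anti-CD40 and the combination.

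Ccl19 encodes a CCR7 ligand of T cell zones (chromosome 4, 42754525 to 42756577, minus strand). Pseudogene copies and a transcript on the opposite strand lie close to it or share its sequence, and how reads were assigned among them is not given in the sources used here, so its level is uncertain. Values of untreated tumours were 0.832, 0, 10.5, 35.5 and 38.8, a wide spread. With beta-glucan Ccl19 ran from 8.94 to 37.4 with a median of 30.5, within the untreated range. Anti-CD40 tumours ran from 62.0 to 124 with a median of 81.5, and combination tumours stood at 94.5, 116, 43.4, 134 and 51.4. Both groups that received anti-CD40 lay above all tumours of the other 2 groups.

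Ccl19 rose 10.5-fold with anti-CD40 (log2 3.39 ± 0.73, adjusted p = 0.00189) and 10.3-fold with the combination (3.36 ± 0.76, adjusted p = 0.00134). The beta-glucan difference of log2 1.62 ± 0.73 did not pass (adjusted p = 0.217). The other CCR7 ligand of the list, Ccl21a, was not analysed here.

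Ltb encodes lymphotoxin beta, the membrane anchor of the ligand of the lymphotoxin beta receptor (chromosome 17, 35194439 to 35196320, plus strand). In untreated tumours Ltb stood at 24.1, 9.49, 7.02, 8.02 and 41.3. It ran after beta-glucan from 20.2 to 90.4 with a median of 48.7, and after anti-CD40 from 61.2 to 451 with a median of 164. After the combination it stood at 258, 306, 229, 462 and 159. The anti-CD40 and combination tumours lay above all untreated ones, and 4 of 6 beta-glucan tumours did.

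Ltb rose 10.2-fold with anti-CD40 (log2 3.35 ± 0.49, adjusted p = 3.99e-05) and 17.6-fold with the combination (4.14 ± 0.52, adjusted p = 1.86e-06). The beta-glucan difference was log2 1.53 ± 0.49 (adjusted p = 0.0666). It passed without untreated 6, the untreated tumour with the highest Ltb (log2 1.90, adjusted p = 0.0146).

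Lta encodes lymphotoxin alpha, the soluble partner of lymphotoxin beta (chromosome 17, 35203165 to 35205351, minus strand), and was measured with few reads. The untreated values were 0, 4.32, 5.26, 0 and 0. Beta-glucan tumours ran from 0 to 6.95 with a median of 0, and anti-CD40 tumours from 0 to 35.1 with a median of 10.9. With the combination Lta stood at 14.8, 24.4, 17.5, 3.98 and 11.6. All 5 combination tumours had reads, and combination 4 lay within the untreated range. Lta, Tnf and Ltb are neighbours on chromosome 17, and reads at their borders could be shared.

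Lta rose 6.75-fold with the combination (log2 2.76 ± 0.95, adjusted p = 0.0279), from a mean of 1.92 ± 2.64 (SD, n = 5) to 14.5 ± 7.50 (n = 5). The call was lost in 10 of 33 alternatives, among them edgeR (log2 2.79, adjusted p = 0.0868) and DESeq2 (log2 2.88, adjusted p = 0.0631). Neither anti-CD40 (log2 1.99 ± 0.91, adjusted p = 0.134) nor beta-glucan (log2 -0.02 ± 0.91, adjusted p = 0.993) passed. Without anti-CD40 6, where 0 reads allow a value of up to 8.15, the anti-CD40 difference passed (log2 2.60, adjusted p = 0.0385).

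Tnfsf13b encodes BAFF, a survival factor for B cells made by myeloid and stromal cells (chromosome 8, 10006467 to 10039072, plus strand). Untreated tumours stood at 10.8, 25, 14.9, 20.6 and 3.76. Beta-glucan tumours ran from 20.9 to 84.4 with a median of 32.7, and anti-CD40 tumours from 35.3 to 112 with a median of 46.3. Combination tumours stood at 105, 174, 54.2, 33.2 and 118. The lowest anti-CD40 and combination tumours were above the highest untreated one, by a small margin.

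Tnfsf13b rose 3.76-fold with anti-CD40 (log2 1.91 ± 0.49, adjusted p = 0.00806) and 6.08-fold with the combination (2.60 ± 0.52, adjusted p = 0.00038). The anti-CD40 call was lost with every tumour scaled to the same total (log2 1.36, adjusted p = 0.13) and with the totals outside the acinar list made equal (log2 1.61, adjusted p = 0.06). The beta-glucan difference of log2 1.45 ± 0.49 did not pass (adjusted p = 0.0845), and its exact permutation p was 0.013.

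**Figure D3:**
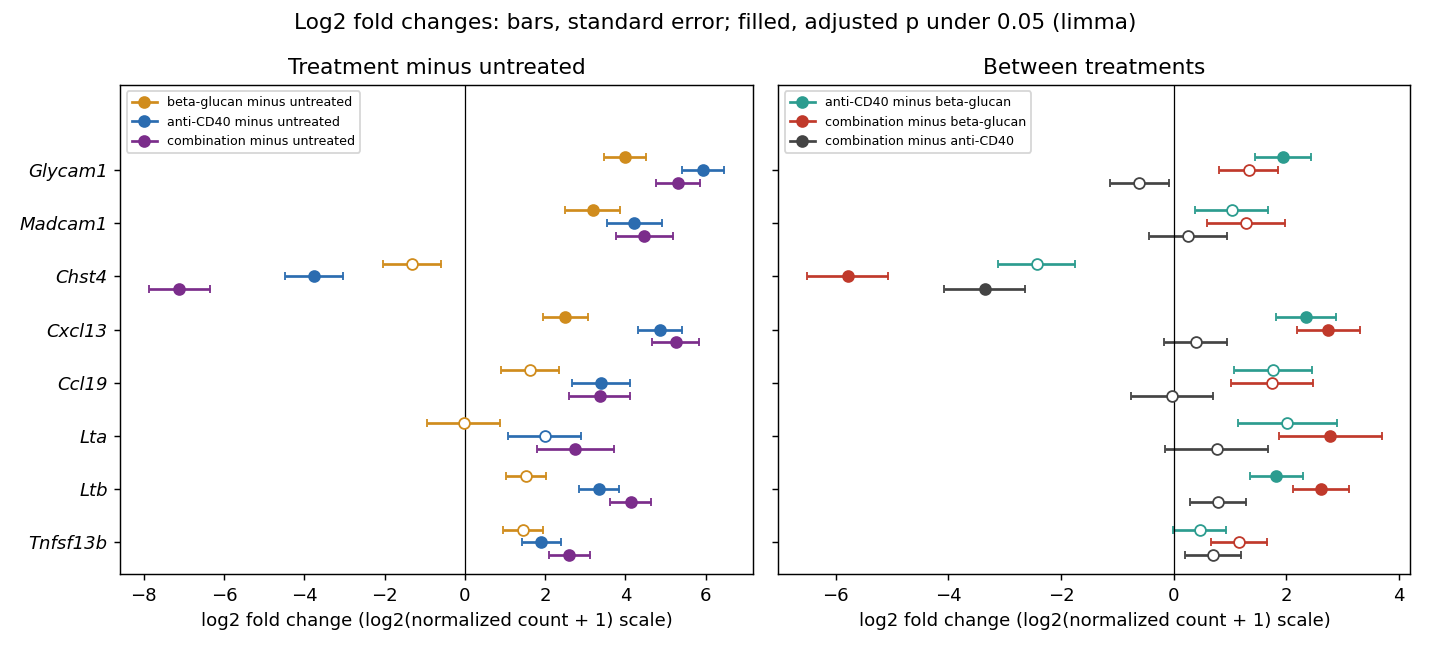
Log2 fold changes of the 8 tested genes on the log2(normalized count + 1) scale, each treatment minus untreated on the left and treatments against each other on the right. Bars are standard errors, and filled points passed at adjusted p under 0.05 in limma. Chst4 is to the left of 0 in all 6 comparisons drawn, and it is the only filled point among combination minus anti-CD40.

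The 2 agents were also compared directly. Cxcl13 was 5.11-fold higher with anti-CD40 than with beta-glucan (log2 2.35 ± 0.53, adjusted p = 0.0182). Glycam1 was 3.84-fold higher (1.94 ± 0.50, adjusted p = 0.0414) and Ltb 3.53-fold higher (1.82 ± 0.47, adjusted p = 0.0414). These 3 calls of 8 compare with 2.1% of all tested genes, 1.61% higher. The Glycam1 and Ltb calls were each lost in 16 of 33 alternatives and the Cxcl13 call in 4, and equal totals left 0 of the 3 (adjusted p = 0.168, 0.161 and 0.119). With equal totals the share of higher genes among all calls went from 76.7 to 44.1% (57.4% outside the acinar list).

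Ccl19 was the member whose anti-CD40 and beta-glucan tumours did not overlap, a pattern of 2.12% of all tested genes, yet its limma adjusted p was 0.222 (log2 1.77 ± 0.69, 95% interval 0.41 to 3.12). For Chst4 the difference was log2 -2.43 ± 0.69 (adjusted p = 0.068). Madcam1 (log2 1.03, interval -0.26 to 2.31), Lta (2.02, 0.31 to 3.73) and Tnfsf13b (0.46, -0.46 to 1.39) did not pass, and these intervals, unadjusted, leave room for several-fold differences.

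Combination tumours differed from beta-glucan tumours in 4 of 8 members, against 14.1% of all tested genes, 6.49% higher and 7.61% lower. Cxcl13 was 6.70-fold higher (log2 2.75 ± 0.56, adjusted p = 0.00231), Ltb 6.10-fold higher (2.61 ± 0.49, adjusted p = 0.00141) and Lta 6.87-fold higher (2.78 ± 0.91, adjusted p = 0.0424). Chst4 was lower by log2 -5.79 ± 0.72 (adjusted p = 6.85e-05), with 501 reads in beta-glucan tumours against 3, a ratio of pooled reads per size factor of 173 (95% interval 58.9 to 843). The Lta call was lost in 13 of 33 alternatives, and the other 3 held in all. Ccl19, Cxcl13, Ltb and Chst4 were the 4 members without overlap, against 11.5% of all tested genes. The Ccl19 adjusted p was 0.111 (log2 1.74 ± 0.73). With equal totals the share of higher genes among all calls went from 46.0 to 11% (17.8% outside the acinar list).

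Adding beta-glucan to anti-CD40 changed 1 of 8 members, against 1.48% of all tested genes, 0.658% higher and 0.826% lower. Chst4 was lower in combination than in anti-CD40 tumours (log2 -3.36 ± 0.72, adjusted p = 0.0308), with 169 reads against 3, a ratio of pooled reads per size factor of 52.7 (95% interval 17.7 to 258). Both groups had tumours at 0 reads and so overlapped, as they did for all members (1.27% of all tested genes did not overlap). Among anti-CD40 tumours only anti-CD40 6 was at 0, where 0 reads allow a value of up to 8.15. The call was lost in 9 of 33 alternatives. For the 7 other members the differences ran from log2 -0.61 (Glycam1, 95% interval -1.64 to 0.42) to 0.79 (Ltb, -0.18 to 1.76), with none past the threshold (limma adjusted p from 0.475 to 0.994). At an unadjusted p under 0.05 the count was also 1, against 2237 of all 14278 tested genes. edgeR and DESeq2 each called 1 member, against 148 and 665 of all tested genes. The medians of the 8 members and of all tested genes were 0.32 and 0.01. Of all calls, 44.3% were higher genes, and 62.5% of 8 calls with equal totals.

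In the order of mean log2 level, combination and anti-CD40 tumours were the 2 highest groups for every member but Chst4, whose order was reversed, and neither of the 2 could be ranked above the other for any of the members that were high there. Beta-glucan tumours came next and untreated tumours last, except that Lta had untreated and beta-glucan tumours at nearly the same level. The step from untreated to beta-glucan passed the threshold in limma for Glycam1, Madcam1 and Cxcl13, though the Madcam1 groups overlapped. The step from beta-glucan to the next group up, anti-CD40, passed for Cxcl13 and Ltb. Both had overlapping groups there, and neither passed with equal totals (limma adjusted p = 0.119 and 0.161).

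The interaction compares the combination with the sum of the effects of the 2 agents on the log2 scale. Glycam1 passed, as 1 of 8 members against 0.021% of all tested genes, with a value of -4.60 ± 0.75 (adjusted p = 0.0318). The combination was thus below the sum of the 2 rises, log2 3.99 ± 0.53 and 5.93 ± 0.53, against 5.32 ± 0.55 for the combination. Because Glycam1 had no reads in untreated tumours, each of these log2 values depends on the pseudocount. With a pseudocount of 8 in place of 1 the interaction was -2.06 (adjusted p = 0.201), and it was lost in 16 of 32 alternatives. For the 7 others the adjusted p ran from 0.316 (Madcam1, -2.94) to 0.916 (Lta, 0.79).

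Other genes of these pathways were examined in 5 lists, which were chosen with earlier results of these data known. Some listed genes passed the filter with the help of the groups where they were high. The counts therefore describe the lists and do not set them apart from other genes. Of all tested genes, 5.09% were called higher with beta-glucan, 11% with anti-CD40 and 18.2% with the combination. Called lower were 1.32, 7.56 and 15.8%, and the median log2 fold changes were 0.02, 0.00 and -0.01. Among 16 tested genes of venule adhesion and its sugar ligands, 4 rose with beta-glucan, 6 rose and 1 fell with anti-CD40, and 7 rose and 2 fell with the combination, and the list's median log2 fold changes were 0.41, 0.84 and 1.59. With equal totals the counts were 2 higher, 1 higher and 1 lower, and 5 higher and 1 lower. Ackr1, a chemokine-binding receptor of venular endothelium, rose by log2 1.87 ± 0.38, 1.84 ± 0.38 and 2.74 ± 0.40. Enpp2, which encodes autotaxin, an enzyme that high endothelial venules secrete, rose by 1.57 ± 0.34 with anti-CD40 and 2.02 ± 0.36 with the combination. B3gnt3, which extends sugar chains of venule adhesion proteins, fell by 1.69 ± 0.56 after anti-CD40 (adjusted p = 0.0371) and 2.72 ± 0.59 after the combination (adjusted p = 0.000916). Its means were 222, 175, 82.4 and 36.8 in untreated, beta-glucan, anti-CD40 and combination tumours, the order of the epithelial list. The part of epithelium in this fall was not tested. Not all enzymes that modify these sugars fell. Fut7, a fucosyltransferase of venule ligands, rose with the combination (log2 2.61 ± 0.86, adjusted p = 0.0208). It had few reads, with means of 1.68 in untreated and 13.6 in combination tumours, and which cells made it was not tested. Chst2, another sulfotransferase, stood at log2 2.12 ± 0.83 with anti-CD40 and 2.17 ± 0.87 with the combination without passing (adjusted p = 0.0821 and 0.0601).

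Of 13 genes of lymphotoxin receptor and non-canonical NF-kB signalling, 3 rose with beta-glucan, 2 with anti-CD40 and 6 with the combination, where 1 fell. The list's median log2 fold changes were 0.66, 0.46 and 0.85, and 2 of 13 with anti-CD40 is near the share over all tested genes. With equal totals the counts of higher genes were 0, 2 and 2, and Ltbr was lower in the last 2. Il7r, the interleukin-7 receptor of lymphocytes and lymphoid tissue inducer cells, rose by log2 1.75 ± 0.43, 2.44 ± 0.43 and 3.61 ± 0.45 (adjusted p = 0.0141, 0.000284 and 1.92e-06). Its ligand Il7 rose by 2.28 ± 0.48 after anti-CD40 (adjusted p = 0.0015) and 1.70 ± 0.50 after the combination (adjusted p = 0.0101). Ltbr, the lymphotoxin beta receptor itself, fell by 0.62 ± 0.18 with the combination (adjusted p = 0.0094), a small change beside the rise of Ltb. Relb, Nfkb2 and Map3k14, the core of the non-canonical arm, passed in none of the 3 comparisons.

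All 3 tested BAFF and APRIL receptors rose with anti-CD40 and with the combination, and 1 rose with beta-glucan, also with equal totals. Tnfrsf13b, which encodes TACI, rose by log2 1.54 ± 0.25, 2.39 ± 0.25 and 2.87 ± 0.26. Tnfrsf13c, which encodes the BAFF receptor of B cells, rose by 5.09 ± 0.82 after anti-CD40 (adjusted p = 0.000111) and 4.67 ± 0.86 after the combination (adjusted p = 0.000183). Tnfrsf17, which encodes BCMA of plasma cells and had no reads in untreated tumours, passed in the same 2 comparisons (adjusted p = 0.0344 and 0.00011). The ligand Tnfsf13b, described above, rose in the same 2.

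Of 13 genes of lymphocyte homing and positioning, 7 rose with beta-glucan, 9 with anti-CD40 and 11 with the combination, with median log2 fold changes of 1.43, 1.73 and 2.46. With equal totals 4, 7 and 8 rose. Itgal, the alpha chain of the integrin LFA-1, rose by log2 2.32 ± 0.28, 3.09 ± 0.28 and 3.68 ± 0.29. Itgb7, the beta chain of the MADCAM1-binding integrin, rose by 1.54 ± 0.36, 3.44 ± 0.36 and 3.80 ± 0.37, and its partner Itga4 by 0.98 ± 0.19, 1.73 ± 0.19 and 2.23 ± 0.20. Ackr4, a scavenging receptor for CCL19 and CCL21, rose by 3.5 ± 0.76, 4.27 ± 0.76 and 4.74 ± 0.79. Ccr7, the receptor of CCL19, passed in none of the 3, with medians of 22.4, 33.9, 85.8 and 83.6 in the order untreated, beta-glucan, anti-CD40 and combination.

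Of 12 follicle and germinal centre genes, 1 rose with beta-glucan, 5 rose with anti-CD40 and 8 with the combination, and 1 fell in each of the last 2. The list's median log2 fold changes were 0.51, 1.58 and 2.71, and 1 of 12 with beta-glucan is near the share over all tested genes. With equal totals 0, 4 and 7 rose and the same number fell. Cr2, the complement receptor of B cells and follicular dendritic cells, rose by log2 3.52 ± 0.63 after anti-CD40 (adjusted p = 0.000306) and 3.71 ± 0.65 after the combination (adjusted p = 0.000111). Icos, a costimulatory receptor of T cells, rose by 3.59 ± 0.50 and 3.96 ± 0.52, and Il21r, a cytokine receptor of lymphocytes, by 2.60 ± 0.33 and 2.92 ± 0.34. Clu, which encodes clusterin and is made by follicular dendritic cells and by many epithelia, fell by 1.94 ± 0.39 and 3.28 ± 0.41. Bcl6, the germinal centre transcription factor, did not pass, with medians of 369, 354, 363 and 430.

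**Figure D4:**
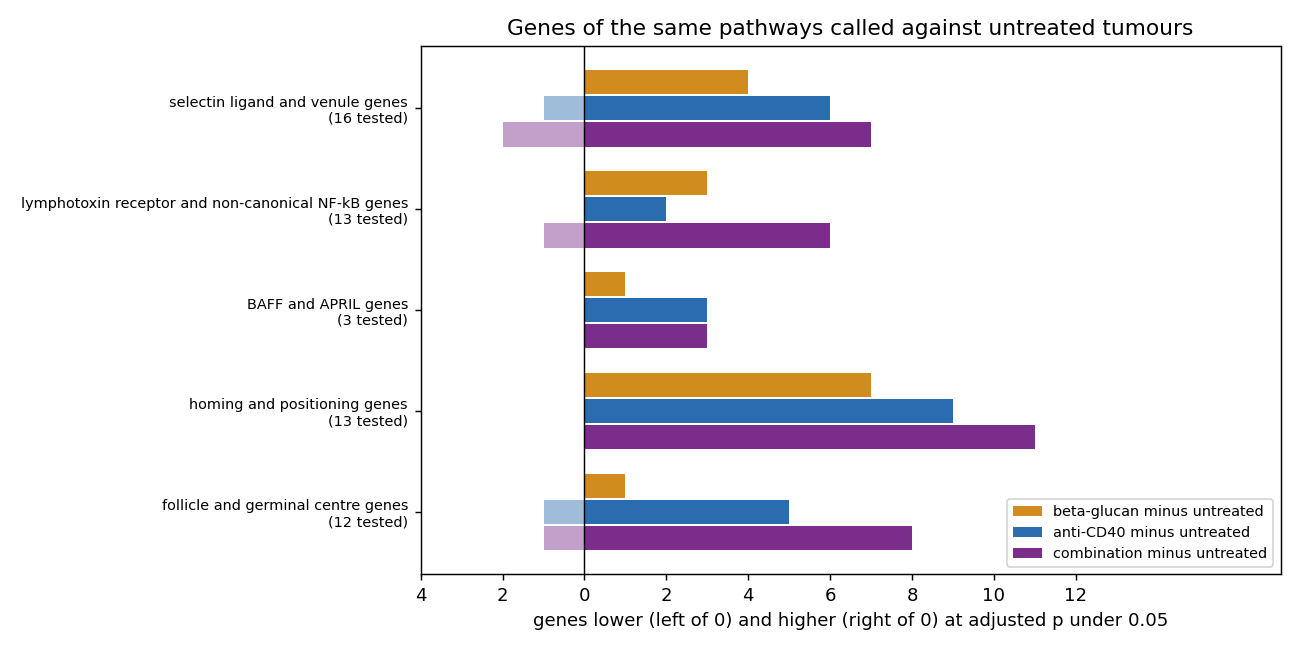
Number of genes higher (right of 0, solid bars) and lower (left of 0, pale bars) at adjusted p under 0.05 in each treatment minus untreated, for 5 pathway lists with the number tested beside each name. Homing genes reach 11 of 13 higher with the combination, and follicle and germinal centre genes 8 of 12.

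Markers of lymphocytes, plasma cells, macrophages and blood endothelium were higher in the groups in which the members were higher. Their counts stand beside 5.09, 11 and 18.2% of all tested genes called higher with beta-glucan, anti-CD40 and the combination. These lists, too, were chosen with earlier results of these data known. The summed B cell list had a median of 51.8 (range 39.9 to 192) in untreated tumours, 194 (126 to 714) with beta-glucan, 1437 (755 to 2203) with anti-CD40 and 1856 (948 to 2222) with the combination, and 2, 8 and 8 of its 8 tested genes rose (1, 8 and 8 with equal totals). Of its defining genes, Cd79a was at 0 in all anti-CD40 and combination tumours and near 0 elsewhere, while Cd79b rose by log2 5.16 ± 0.51 and 5.21 ± 0.54. The T cell list had medians of 224, 372, 1915 and 2666, with 0, 7 and 8 of 8 tested genes higher. The plasma cell list had medians of 482, 913, 5458 and 9644, with 3, 5 and 6 of 7 genes higher (2, 5 and 5 with equal totals). Its highest sum among anti-CD40 tumours, 6580, was in anti-CD40 6, the tumour with the highest acinar share. The part of acinar reads in this list was not tested. The macrophage list had medians of 14393, 31602, 41078 and 71049, with 4, 6 and 7 of 7 genes higher (1, 3 and 6 with equal totals). The blood endothelium list had medians of 2641 (2103 to 4187), 4635 (3570 to 5442), 4821 (3958 to 12550) and 8795 (5859 to 12531), with 2, 5 and 8 of 10 genes higher, and 0, 0 and 4 with equal totals. Other lists did not follow the order of the members. The mature dendritic cell list had medians of 3146, 4371, 3818 and 2937, lowest with the combination. The reticular fibroblast list had medians of 23401, 59334.5, 39121 and 77404, and the lymphatic endothelium list of 834, 2702, 2277 and 4379. Both were lower with anti-CD40 than with beta-glucan. The part of these cell types in the members' rises was not tested.

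The members varied together in some pairs and not in others. After the group means were removed, Pearson's r over the 22 tumours was 0.69 for Cxcl13 with Tnfsf13b, 0.67 for Lta with Tnfsf13b, 0.65 for Madcam1 with Ltb and -0.47 for Madcam1 with Cxcl13. Glycam1 had r = 0.68 with the blood endothelium list on the same basis, 0.51 with the T cell list, 0.40 with the mature dendritic cell list, 0.37 with the macrophage list and 0.23 with the B cell list. The pairs share libraries and scaling, and the values are descriptions.

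The genes most like the members were taken as the 10 with the highest Pearson's r, over 22 tumours, with the mean of the 8 standardised members. They were Itgal (r = 0.96), Pik3cd, C1qc, Irf4, Sorl1, Arhgap30, AW112010, Lyz2, Gbp2 and Ubd (r = 0.93). These r values include the differences between groups and are the highest of all tested genes by choice. After the group means were removed, r for these 10 ran from 0.59 (Irf4) to 0.79 (Itgal). With Chst4 left out of the mean, 6 of these 10 remained among the first 10. Irf4, a transcription factor of lymphocytes and dendritic cells, had medians of 2.59, 22.6, 107 and 238 in the order untreated, beta-glucan, anti-CD40 and combination. Of the pairs found for each member, the closest were Samhd1 with Ltb (r = 0.97) and Tbkbp1 with Ltb (r = 0.96). Next came Unc93b1 with Tnfsf13b (r = 0.95), Mcpt1 and Phgr1 with Chst4 (r = 0.95 for each), Il2rg with Glycam1 and Sema4d with Tnfsf13b (r = 0.94 for each) and Sp140 with Madcam1 (r = 0.93). For Cxcl13 and Ccl19 they were Calhm2 (r = 0.92) and Slc1a3 (r = 0.88), and for Lta Fcrla (r = 0.81). With the group means removed, r for the pairs named here ran from 0.51 (Il2rg with Glycam1) to 0.90 (Unc93b1 with Tnfsf13b). Phgr1 shared the order of Chst4, with medians of 204, 47.0, 18.6 and 0.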

How the data were processed

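RNA of 22 tumours was sequenced from 3′ ends (QuantSeq FWD, 100 ng of RNA per library, per the labels' protocols). Per the submitters' processing notes, STAR, DESeq2 and mm10 were used, with no versions given; no source used here names the counting program, the annotation or the strand setting. The values are a signal: read counts that the authors divided by a size factor per tumour and deposited as 1 table. Whole reads were recovered from the smallest step of each tumour (100% of 395252 values whole within 0.001 reads). No 2 tumours of a group agreed within sampling noise (lowest chi-square per degree of freedom 12.7 over 50 pairs).

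Limma 3.58.1 in R 4.3.3 (trended, robust) modelled log2(value + 1) by group, over all 4 groups and 22 tumours. Genes needed a value of 10 or more in 5 or more tumours (14278 passed); tests were two-sided, with Benjamini-Hochberg adjustment over all of them within each contrast and a threshold of 0.05. Log2 fold changes are given ± SE and means ± SD. Intervals and floors of 3 reads cover counting error only, and reads without molecular identifiers are not independent molecules. edgeR 4.0.16 and DESeq2 1.42.0 were run on the recovered reads as alternatives, and the steps were tested on simulated data. Coordinates are from GENCODE for GRCm38 (mm10), promoters from RefSeq. Columns without a sample numbered 0.

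The members and the other gene lists were chosen with earlier results of these data known. Named were all members, the genes most like them, and from each list up to 4 called genes with the smallest p; Relb, Nfkb2, Map3k14, Ccr7, Bcl6, Ltbr, B3gnt3, Fut7, Chst2 and Cd79a were named after their values were seen, for their role or as exceptions. Alternatives that leave out tumours above 20% acinar reads, and the likeness without Chst4, were added after the data were seen.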

Additional observations from a re-analysis of the deposited data

Results flagged for a closer look

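Glycam1 was marked for a second look because its response to both agents together differed from the sum of its responses to each, by the interaction term of the limma fit (-4.60 ± 0.75 on the log2 scale, adjusted p = 0.0318). All 5 untreated tumours had 0 reads, so that the size of this term depends on the pseudocount. On the log2(value + 1) scale the group differences from untreated tumours were 3.99 with beta-glucan, 5.93 with anti-CD40 and 5.32 with the combination, which are no bounds on the rises. edgeR gave -7.82 (adjusted p = 0.0146) and DESeq2 -7.15 (adjusted p = 1.11e-05) on the recovered reads, and a pseudocount of 8 gave -2.06 (adjusted p = 0.201). With no untreated reads, the sizes of the edgeR and DESeq2 terms are not fixed by the data either. Without combination 5, the combination tumour with the lowest Glycam1, the limma term was -4.18 (adjusted p = 0.0602). In 34 combinations of member and group, 0 held a tumour that stood apart from the others of its group by Dixon's test.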

How the results depend on the processing

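Against untreated tumours the calls of Glycam1, Madcam1 and Cxcl13 (each treatment), of Chst4, Ccl19 and Ltb (anti-CD40 and combination) and of Tnfsf13b (combination) held in all 33 alternatives. Leaving out each tumour in turn gave 3 to 4 members called with beta-glucan, 7 to 8 with anti-CD40 and 7 to 8 with the combination. For anti-CD40 minus beta-glucan (3 members called) that range was 0 to 3, the lowest without beta-glucan 6. It was 3 to 4 for combination minus beta-glucan (4 called), 0 to 1 for combination minus anti-CD40 (1 called) and 0 to 1 for the interaction (1 called).

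Members called in anti-CD40 minus beta-glucan fell to 0 with equal totals, 0 with equal totals outside the acinar list and 1 with the replicate block. In combination minus anti-CD40 the count was 0 with a pseudocount of 8, with equal totals and with equal totals outside the acinar list. In the interaction it was 0 with a pseudocount of 8, with either form of equal totals, with reads thinned to the shallowest depth and without tumours above 20% acinar reads, and 2 with DESeq2. The cause was not tested.

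Differences near 0 changed sign. Lta, beta-glucan minus untreated, was 0.025 with a pseudocount of 8, 0.16 with edgeR, 0.19 with DESeq2 and 0.10 with the replicate block, and ran from -0.43 to 0.38 with 1 tumour left out. Tnfsf13b, anti-CD40 minus beta-glucan, was -0.14 with equal totals. Madcam1, combination minus anti-CD40, was -0.026 with edgeR, -0.0060 with DESeq2 and -0.37 without tumours above 20% acinar reads. Ccl19 in that comparison was 0.099 and 0.035 with the 2 forms of equal totals, 0.048 with edgeR, 0.069 with DESeq2, 0.18 with the replicate block and 0.039 without tumours above 20% acinar reads, and ran from -0.21 to 0.19 with 1 tumour left out. None of these passed the threshold.

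Equal totals moved the median of all genes by -0.56 with anti-CD40 and -0.45 with the combination against untreated tumours, by -0.64 and -0.48 against beta-glucan tumours, and by 0.13 between the 2. Over all genes, 916 calls for beta-glucan minus untreated became 258 with equal totals and 499 outside the acinar list, and ran from 507 (without beta-glucan 5) to 1098. For anti-CD40 minus beta-glucan 300 became 34, 101, 634 with DESeq2 and 194 without tumours above 20% acinar reads, with a range of 160 (without beta-glucan 4) to 368. For combination minus beta-glucan 2013 became 1187 with equal totals and 1003 without those tumours. For combination minus anti-CD40 212 became 8, 11, 665 with DESeq2, 395 without anti-CD40 6 and 3 without the 5 tumours, with a range of 28 (without anti-CD40 2) to 852. The 3 interaction calls became 98 with DESeq2, 8 with the replicate block, 6 without anti-CD40 6 and at most 2 in the other planned settings, with a range of 0 to 12. Over the 5 tumours above 20% acinar reads the choice was made after the data were seen.

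Replicate numbers did not pair the tumours: deviations from the group means correlated by -0.271 to 0.338 over 30 pairs with the same number (median 0.0283), and 4 of 22 tumours correlated best with their own number. The combination tumour taken as 5 from its title has a table column numbered 6, so its number is uncertain. With the replicate block 4, 7 and 8 members were called against untreated tumours. Low reads limited Lta and Cxcr5 most, and in anti-CD40 6 a count of 0 allowed a value of up to 8.15.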
